A study of Rattus norvegicus with 14 samples.

Results

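TNBS (2,4,6-trinitrobenzene sulphonic acid) is a hapten that, given into the colon, damages the epithelium and provokes an acute colitis in patches. Inflamed colon of TNBS treated rats was compared here with control colon, gene by gene, and each gene was also asked whether all 6 inflamed libraries lay beyond both controls. The members are 8 of the 14 libraries of the series, 6 TNBS treated inflamed (animals 218 to 223) and 2 control (animals 216 and 217), and of 26319 genes in the table the 18678 that passed a filter on low counts. The rats were male Wistar and the sources used here do not give their age. The labels describe the controls as vehicle-treated, the study's text as untreated. Treated rats received 0.25 ml of TNBS through a catheter, and all tissue was taken at 72 h from the distal colon. Control samples came from random sections, inflamed samples from an inflamed region, so place along the colon was not matched between the groups. The other 6 libraries come from uninflamed regions of the same treated rats and are used only beside the result.

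Colitis of this kind joins several processes that bulk RNA records together. Cells that sense damage or bacteria make interleukin-1, chemokines and prostaglandins, which draw neutrophils and monocytes out of the blood. Those cells bring proteases, oxidant-producing enzymes and metal-binding proteins that starve bacteria. The epithelium that would absorb salt, water and short-chain fatty acids, and secrete mucus, is shed or changes its programme, and fibroblasts and vessels begin repair. In a piece of whole tissue, fewer cells of a type and less RNA per cell cannot be told apart.

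Levels are given in CPM (counts scaled to a common library size) after TMM scaling and are compared only within a gene. Differences are log2 fold changes of inflamed minus control ± standard error from edgeR's quasi-likelihood test. A gene was called when its change was 2-fold or more and its p, adjusted over all genes by Benjamini-Hochberg, lay under 0.05. By that rule 1107 genes (5.93% of those tested) were higher and 1455 (7.79%) were lower in inflamed colon, 2562 (13.7%) in all. Every inflamed library lay above both controls for 2612 genes (14%) and below both for 2667 (14.3%). The calls and the separation overlapped in most but not all genes. Of the genes called higher, 1032 (93.2%) had all 6 libraries above both controls and 75 had groups that overlapped. Of the genes called lower, 1302 (89.5%) had all 6 below and 153 overlapped. Another 1580 genes above and 1365 below both controls were not called. The median log2 fold change over all genes tested was 0.10.

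Control libraries held 12013023 and 12041314 reads and inflamed libraries 6734968 to 13792657. The 41 genes that took over 0.5% of the reads of any library held 32.0% and 41.6% of the control reads and 23.3% to 32.3% of the inflamed reads, and the TMM factors were 0.633 and 0.866 in controls against 0.980 to 1.24 in inflamed libraries. Scaling by library totals alone moved the median log2 fold change to 0.72 and the split of calls to 3372 higher and 470 lower. All 1107 genes called higher and 470 of the 1455 called lower were called in the same direction under both scalings. Defining markers of colon epithelium (Epcam, Cdx2, Vil1) and of smooth muscle (Myh11, Actg2) had reads in all 8 libraries. Those of squamous epithelium (Krt5, Krt14) reached at most 2.85 CPM, and the B cell marker Cd79a at most 0.248 CPM.

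Many calls were lost when a control was left out. Of the 2562 called genes, 962 were called in the same direction without control 216, 847 without control 217, and 462 (18.0%, 156 higher and 306 lower) in both of these fits, while 1215 were called in neither. Among the 196 called genes named here, most that lost the call kept their direction and a change of at least 2-fold. They numbered 73 without control 216 and 75 without control 217. These genes were named largely for their change or adjusted p in the full fit, so they need not stand for all 2562. With any single inflamed library left out, 1935 were called each time. A group of 81 called genes had controls more than 4-fold apart, 4 of them called higher and 77 lower. In 67 of these 77 it was control 217 that stood high, and in 68 the inflamed libraries overlapped the controls. Genes that kept their call in both of these fits are described below as called without either control.

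**Figure D1:**
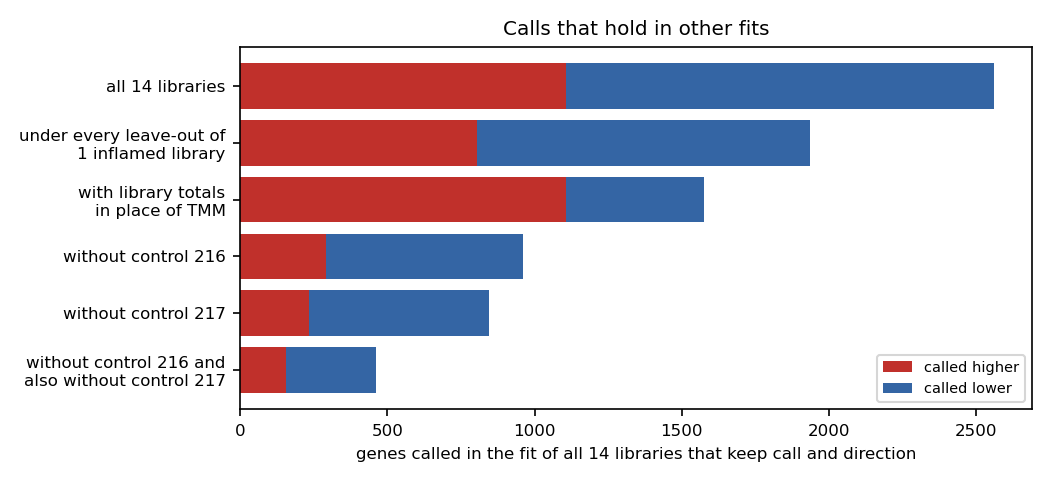
Number of genes called in the fit of all 14 libraries (top bar, 1107 higher and 1455 lower) that keep call and direction in each other fit; the axis counts genes, red bars are genes called higher and blue bars genes called lower in inflamed colon. The shortest bar holds the 156 higher and 306 lower genes that are called without control 216 and also without control 217.

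The largest rises with groups that did not overlap included both calprotectin subunits, a neutrophil chemokine and the inducible nitric oxide synthase. S100a8, a subunit of calprotectin, which binds zinc and manganese, read 2.60 and 0.525 CPM in controls 216 and 217 and 64.7 CPM at the lowest, 266 at the median and 582 at the highest in inflamed libraries (log2 fold change 7.40 ± 1.20, adjusted p = 0.00173). Its partner S100a9 read 7.5 and 3.68 CPM in controls and 219, 655 and 1214 CPM (6.90 ± 0.88, adjusted p = 0.000566). Cxcl2, a chemokine that recruits neutrophils, read 2.12 and 1.18 CPM against 73.8, 240 and 522 (7.29 ± 0.82, adjusted p = 0.00032). In all of these genes every inflamed library was far above both controls, with animal 221 the lowest. Nos2, the inducible nitric oxide synthase, stood at 8.37 and 7.48 CPM in controls and at 296, 911 and 2540 CPM (7.01 ± 1.00, adjusted p = 0.000908), here with animal 218 the lowest and animal 219 the highest. Lcn2, which sequesters bacterial iron carriers, read 2.02 and 1.05 CPM against 34.0, 166 and 376 (6.74 ± 1.06, adjusted p = 0.00153). Further rises among the leading 15 were the chemokine Ccl3 (6.02), the protease inhibitors Slpi (5.76), Slpil2 (6.11) and A2m (5.96), Plek, a protein kinase C substrate of platelets and leukocytes (5.69), the butyrate and niacin receptor Hcar2 (5.75), the myeloid receptors Lilrb4 (5.49) and Clec4d (5.39), Wfdc18 (5.37) and the lipase inhibitor Angptl4 (6.15). Of the 15, 12 were called without either control. A2m and Wfdc18 lost the call without control 216 (adjusted p = 0.07 and 0.203) and without 217 (0.0858 and 0.152), and Hcar2 without 217 (adjusted p = 0.0535).

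The largest falls included a water channel, ion exchangers and goblet cell products. S100g, the calcium-binding calbindin of the gut, read 142 and 171 CPM in controls and 0 CPM at the lowest, 0.202 at the median and 1.64 at the highest in inflamed libraries (log2 fold change -8.38 ± 0.93, adjusted p = 0.000358). Aqp8, a water channel of surface colonocytes, read 110 and 199 CPM against 0.248, 1.496 and 6.02 (-6.20 ± 0.74, adjusted p = 0.000512). Atp12a, the colonic proton-potassium pump, read 972 and 454 CPM against 4.01, 11.03 and 39.6 (-5.62 ± 0.69, adjusted p = 0.000555). The groups lay far apart in each, and animal 221 was the inflamed library nearest to the controls in all of them. Retnla, a resistin-like secreted protein, read 157 and 111 CPM against 0.318, 0.7996 and 2.05 (-6.93 ± 0.84, adjusted p = 0.000555). Car2, the carbonic anhydrase that supplies bicarbonate and protons to the surface exchangers, read 688 and 381 CPM against 12.8, 26.0 and 74.3 (-4.04 ± 0.49, adjusted p = 0.000449). The exchangers it serves fell with it, namely the chloride-bicarbonate exchanger Slc26a3 (-3.98) and the sodium-proton exchanger Slc9a3 (-3.92). The other leading falls were Retnlb (-5.89) and Itln1 (-4.72), both goblet cell products, the mucus component Fcgbp (-3.91) and the mucin Muc3 (-4.20). The crosslinking enzyme Tgm3 (-4.47), Misp (-4.88), which organises actin, Pdzk1ip1 (-4.00) and the gluconeogenic enzyme Pck1 (-3.96) completed the leading falls. All but Retnlb were called without either control; Retnlb had an adjusted p of 0.0589 without control 216.

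**Figure D2:**
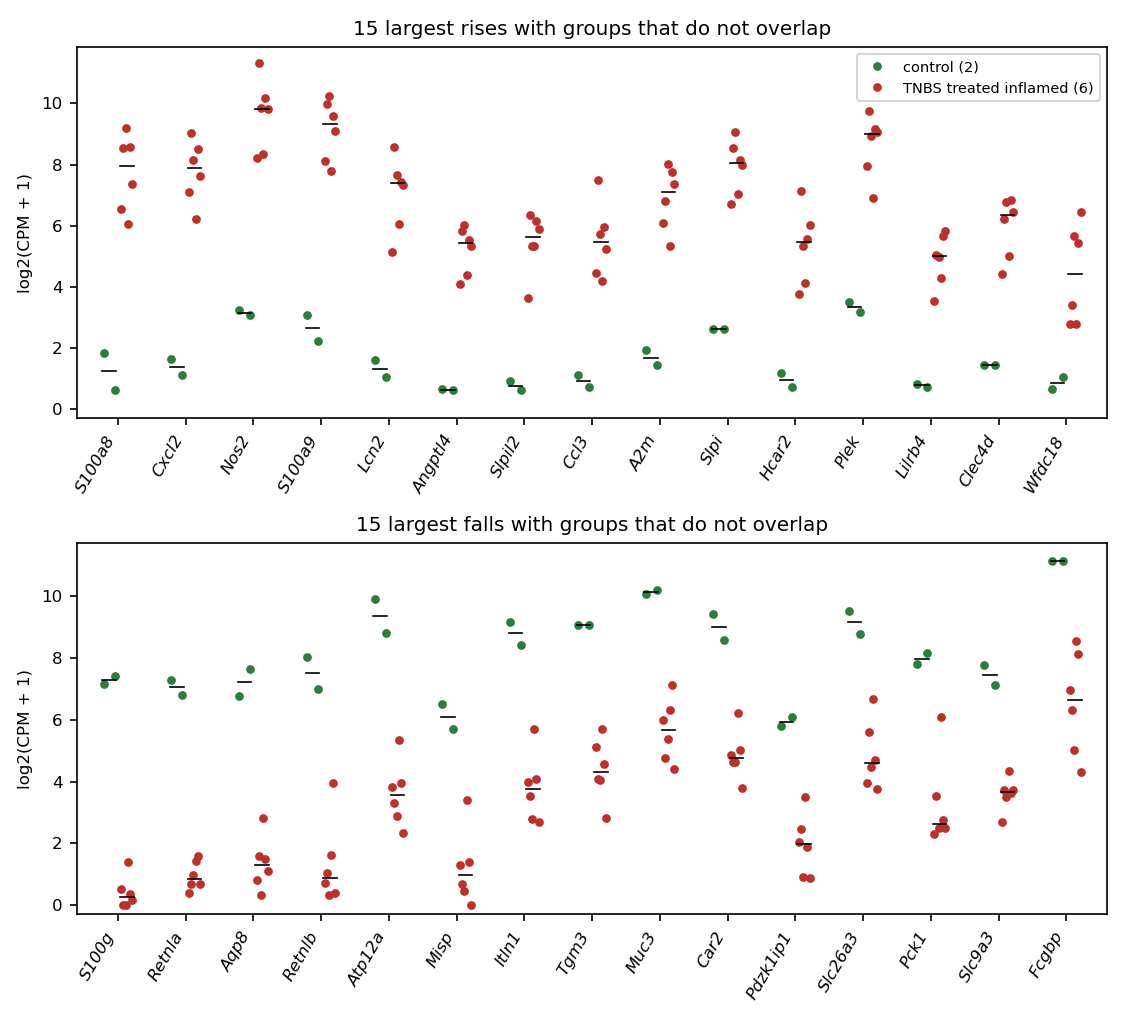
Level of the 15 largest rises (top) and the 15 largest falls (bottom) in each control (green) and each TNBS treated inflamed library (red), as log2(CPM + 1); short lines are group medians. No gene has an inflamed library between or beyond the controls on the other side, by the rule that chose them, and the inflamed points of single genes span several log2 units.

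Promoter sequence was looked up for these 30 genes in RefSeq (build GRCr8, 250 bases before to 50 after the start site), where 7 of the rises and 13 of the falls matched by symbol. A kappaB-like word, GGGNNNTTC on either strand, was present in 3 of the 7 rises (Cxcl2, S100a9 and Lcn2). It was also in 5 of the 13 falls (Aqp8, Misp, Itln1, Slc26a3 and Slc9a3), and in 14.2% of all 33469 promoters of 300 bases. A C/EBP-like word, TTGCNNAA, was present in 2 of the 7 and 3 of the 13, against 10.6% of all. The AP-1 word TGANTCA and the STAT word TTCNNNGAA were in 0 of the 7 rises and in 1 and 2 of the 13 falls, against 7.33% and 8.87%. The HNF4-like word CAAAGT was in 0 of the 7 and 2 of the 13 (14.8% of all) and the CDX-like word TTTATNA in 1 and 2 (14.8% of all). Both strands were searched for each word, and a match describes the letters, not a bound site. The promoters of the neutrophil chemokine and of the iron-carrier binder are shown with the kappaB-like words in capitals, and that of the goblet cell lectin Itln1 with the HNF4-like word in capitals. Cxcl2, on the minus strand at chr14:17467206-17467505, holds its words starting 74 and 54 bases before the start site. Lcn2 is on the minus strand at chr3:36081731-36082030, with its word starting 241 bases before the start site. Itln1 is on the plus strand at chr13:86480298-86480597, with its HNF4-like word starting 30 bases before the start site. Its kappaB-like word, starting 124 bases before, and its CDX-like word, starting 113 bases before, are left in small letters.
Cxcl2: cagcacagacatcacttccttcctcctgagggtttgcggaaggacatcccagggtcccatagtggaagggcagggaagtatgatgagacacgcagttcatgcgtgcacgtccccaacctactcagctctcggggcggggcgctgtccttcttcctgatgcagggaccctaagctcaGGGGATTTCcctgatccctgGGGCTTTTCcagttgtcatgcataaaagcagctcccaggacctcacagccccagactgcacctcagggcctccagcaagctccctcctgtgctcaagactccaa
Lcn2: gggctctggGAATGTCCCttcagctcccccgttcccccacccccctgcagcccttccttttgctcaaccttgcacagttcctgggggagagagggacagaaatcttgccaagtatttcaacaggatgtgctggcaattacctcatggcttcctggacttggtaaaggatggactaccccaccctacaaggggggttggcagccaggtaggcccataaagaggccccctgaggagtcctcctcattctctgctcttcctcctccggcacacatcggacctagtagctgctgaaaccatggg
Itln1: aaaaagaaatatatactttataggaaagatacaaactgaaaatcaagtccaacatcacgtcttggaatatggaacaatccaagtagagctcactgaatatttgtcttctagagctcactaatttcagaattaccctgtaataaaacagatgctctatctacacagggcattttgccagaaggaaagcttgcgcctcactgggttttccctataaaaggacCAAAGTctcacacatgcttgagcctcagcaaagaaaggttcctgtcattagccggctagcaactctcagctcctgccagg

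Gene lists of 46 cell types and processes were read against the shares over all genes (5.93% called higher, 7.79% called lower). For counts of list genes with all inflamed libraries above or below both controls, the matching shares over all genes were 14% and 14.3%. With library totals as the scale, the list medians of interstitial cells of Cajal, enteric glia, enteroendocrine cells, crypt stem cells, xenobiotic metabolism, positional genes, circadian genes and channels changed from negative to positive, beside the shift of 0.72 for all genes. Of 22 neutrophil genes tested 17 were called higher and 0 lower, with a median log2 fold change of 3.79 (3.51 with Fpr1, which has no read in either control, at its lower bound), and 13 were called without either control. The defining markers were Csf3r, the receptor of granulocyte growth factor, at 3.85 and 4.33 CPM in controls against 17.7, 76.3 and 99.9 (4.03 ± 0.70, adjusted p = 0.00234), and the chemokine receptor Cxcr2 at 0.481 and 0.656 CPM against 2.75, 15.8 and 23.7 (4.57 ± 0.83, adjusted p = 0.00283). The groups lay apart in both. Trem1, an amplifying receptor (4.79), and Ncf4, part of the oxidase that makes superoxide (2.65), also rose. The summed level of the list was 72.2 and 83.7 CPM in controls and 638 to 2846 CPM in inflamed libraries.

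Of 22 monocyte and macrophage genes 12 were called higher and 0 lower (median 1.64, 6 called without either control). Cd68, a lysosomal protein of macrophages, read 1.83 and 0.656 CPM against 6.36, 13.7 and 20.8 (3.35 ± 0.57, adjusted p = 0.00195). Gpnmb, found in phagocytes that take up debris, read 9.81 and 5.51 CPM against 59.8, 164 and 288 (4.47 ± 0.62, adjusted p = 0.00081). Tyrobp, a signalling adaptor (3.6), the Fc receptor Fcgr1a (2.94) and Aif1 (1.84) rose as well, all without overlap of the groups. Of 9 eosinophil and basophil genes 2 were higher, the lipoxygenase Alox15 (3.37) and Siglec8 (2.57), and neither was called without either control. Mast cell genes went the other way, with 0 of 8 higher and 3 lower (Mcpt1, Ms4a2 and Gata2, median -0.67, with library totals -0.02 and 1 called lower, 0 called without either control); the list's defining protease Cpa3 read 8.85 and 11.8 CPM in controls and 3.69 to 13.4 in inflamed libraries, which overlapped.

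Lymphocyte lists were uneven. Of 21 T cell genes 2 were higher and 2 lower (median 1.48, and 0.76 without animal 218). Cd3g read 1.64 and 4.46 CPM in controls against 8.70, 23.4 and 112 (3.75 ± 0.95, adjusted p = 0.0161), while Cd3e, which encodes another chain of the same receptor complex, read 1.15 and 13.7 CPM against 0.744, 2.09 and 24.8 (-0.31 ± 1.15, adjusted p = 0.89). Cd8a was higher (2.49) without overlap and Cd4 lower (-3.08) with overlap: Cd4 read 11.2 CPM in control 216 and 351 in control 217, and 8.68, 21.0 and 35.3 CPM in inflamed libraries, and leaving out control 217 gave 0.92 on the log2 scale (adjusted p = 0.427). Itgae, the integrin of lymphocytes within the epithelium, was lower (-1.17 ± 0.30, adjusted p = 0.0158) with all 6 libraries below both controls. No T cell call held without either control. Of 15 B cell genes 0 were called in either direction and 5 had all inflamed libraries above both controls (median 2.68). Their summed level was 150 and 257 CPM in controls, 1987 CPM in the inflamed library of animal 218 and 232 to 629 CPM in the other 5, and without animal 218 the median was 1.21. Ms4a1, which encodes CD20, read 113 CPM in animal 218 and 1.86 to 17.4 in the other inflamed libraries against 2.60 and 2.36 in controls (3.23 ± 1.86, adjusted p = 0.269). Of 9 plasma cell genes 1 was called, the transcription factor Prdm1 (1.01), and of 15 natural killer and innate lymphoid genes 1 was higher (Ncr3, 1.63) and 3 were lower, among them Nkg7 (-2.13) and Gzma (-1.33). None of these 5 was called without either control.

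Signals that attract and activate leukocytes rose in part. Of 31 chemokines 11 were higher and 3 lower (median 0.67, 1.11 without control 217, 7 called without either control). Cxcl1, a second neutrophil attractant, read 1.35 and 1.05 CPM in controls against 11.1, 32.7 and 58.6 (4.82 ± 0.74, adjusted p = 0.0012). The 3 that fell were Cxcl14, Cx3cl1 (-2.71) and Ccl28 (-2.55); Ccl28, made by colon epithelium, read 27.0 and 42.3 CPM against 2.98, 5.30 and 11.4. Of 32 cytokines 13 were higher and 3 lower (median 1.16, 4 called without either control). Il1b read 16.2 and 4.20 CPM against 95.8, 276 and 532 (4.77 ± 0.80, adjusted p = 0.00195), and Osm, an interleukin-6 family cytokine, 0.865 and 0.788 CPM against 6.56, 12.6 and 35.9 (4.36 ± 0.74, adjusted p = 0.00214). Both were beyond both controls in every inflamed library. Il6 (4.10), Tnf (2.52), Il10 (2.67), Il11 (3.73) and Csf3 (4.78), the granulocyte growth factor, were called in the fit of all libraries, and each lost the call without control 217 with log2 fold changes of 1.90 (Tnf) to 4.22 (Csf3) and adjusted p from 0.0783 to 0.188. Il6, Il10 and Il11 lost it without control 216 as well (3.36 for Il11, 2.65 for Il10 and 5.34 for Il6, adjusted p from 0.0606 to 0.209). Il18, which epithelium makes, was lower at 30.7 and 37.2 CPM against 6.70, 10.5 and 14.6 (-1.68 ± 0.31, adjusted p = 0.00312).

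Among 39 cytokine receptors 18 were higher and 3 lower (median 1.20, 8 called without either control). The signalling receptor Il1r1 (3.13), the tumour necrosis factor receptor Tnfrsf1b (2.77), Il10ra (2.39) and Il17ra (1.82) rose without overlap. The 3 lower ones, Il17rc, Il22ra1 and Il20ra, are receptor chains used by epithelium. Brakes on the same signals were among the rises: of 27 feedback inhibitors 9 were higher and 0 lower (median 0.90, 2 called without either control). The interleukin-1 receptor antagonist Il1rn read 5.38 and 2.63 CPM against 46.5, 108 and 238 (4.96 ± 0.85, adjusted p = 0.00232), and the decoy receptor Il1r2 8.37 and 10.9 CPM against 38.0, 126 and 176 (3.55 ± 0.63, adjusted p = 0.0025). Both held without either control. Nfkbia (2.07), the inhibitor of NF-kappaB, and Zfp36 (2.21), which shortens the life of cytokine mRNA, lost the call without control 217 (adjusted p = 0.0901 and 0.169).

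Inflammatory enzymes and alarmins gave 15 higher and 1 lower of 28 (median 1.63, 9 called without either control). Ptgs2, the inducible cyclooxygenase of prostaglandin synthesis, read 10.4 and 7.09 CPM against 89.9, 296 and 624 (5.09 ± 0.88, adjusted p = 0.00233). The prostaglandin-degrading enzyme Hpgd was the member that fell, at 201 and 243 CPM against 15.5, 22.9 and 62.4 (-2.96 ± 0.43, adjusted p = 0.000913). Irg1, which makes itaconate in activated macrophages, rose (4.70 ± 0.70, adjusted p = 0.00103). No library of either group crossed in these genes. Of 21 early response transcription factors 6 were higher and 3 lower (median 0.17, and 1.16 without control 216; 2 called without either control). Klf4, a factor of differentiated surface epithelium, read 194 and 116 CPM against 8.16, 10.2 and 42.9 (-3.25 ± 0.49, adjusted p = 0.00114), Jund fell (-1.33), and Cebpb (2.75) and Nr4a1 (2.66) rose. Fos was not called, with 77.7 and 25.9 CPM in controls and 9.11, 27.5 and 32.8 CPM in inflamed libraries.

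Matrix proteases and their inhibitors had 15 higher and 2 lower of 29 (median 1.98). The neutrophil collagenase Mmp8 read 2.31 and 1.84 CPM against 14.8, 39.7 and 97.8 (4.60 ± 0.86, adjusted p = 0.00345). The matrix glycoprotein Tnc read 135 and 94.4 CPM against 308, 1777 and 1975, with animal 218 apart from the other 5. All inflamed libraries were above both controls in these genes, but none of the list's 17 calls held without control 217 (Mmp8 4.45, adjusted p = 0.0555, and Tnc 3.43, adjusted p = 0.0616). Of 20 fibroblast genes 8 were higher and 1 lower (median 0.94, 0 called without either control), with Fn1, fibronectin, at 246 and 231 CPM against 356, 1878 and 3340 (2.99 ± 0.67, adjusted p = 0.008), Col1a1 at 2.93 and Pdgfrb at 1.92. Pi16 was the member that fell (-1.78). Of 18 endothelial genes 9 were higher and 1 lower, and 15 had all inflamed libraries above both controls (median 1.15, 1 called without either control). Sox18, an endothelial transcription factor, read 0.481 and 0.263 CPM against 2.44, 4.17 and 6.23 (3.35 ± 0.55, adjusted p = 0.00163). Flt1, a receptor of vascular growth factor, fell (-1.81 ± 0.41, adjusted p = 0.00799) from 717 and 1320 CPM. The list's summed level was 851 and 1473 CPM in controls and 460 to 695 CPM in inflamed libraries, the opposite direction to its median, and Flt1 held 84.3% and 89.6% of it in controls. Of 8 lymphatic endothelial genes 1 was higher (Pdpn, 1.98) and 1 lower (Mmrn1, -1.25). Neither was called without either control.

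Of 27 complement and coagulation genes 6 were higher and 1 lower (median 0.99, 1 called without either control). The anaphylatoxin receptor C5ar1 rose from 1.06 and 0.919 CPM to 6.04, 16.6 and 21.5 (3.89 ± 0.60, adjusted p = 0.0012) and C3 from 8.75 and 7.74 to 63.8, 135 and 585 (4.68 ± 1.07, adjusted p = 0.00969). Cd59, which blocks the membrane attack complex, fell (-1.42). Interferon response genes had 2 higher and 1 lower of 32 (median 0.27). Ifit3 stood at 1.64 and 1.44 CPM against 19.7, 49.9 and 96.1 (5.21 ± 0.72, adjusted p = 0.000833), and it held without either control; Gbp1 fell (-2.56). Antigen presentation had 2 higher (Ifi30, Cd80) and 2 lower (Ctss, Tapbp) of 21 (median 0.77, 0.25 without animal 218 and 1.24 without control 216), 0 of them called without either control, and its summed level was 1132 and 950 CPM in controls, 2501 CPM in animal 218 and 577 to 1039 CPM in the other inflamed libraries. Red blood cell genes had 3 higher of 8 (Hbb-b1, Hba1, Hbb; median 1.32), which share sequence and whose counts are therefore uncertain. Their list summed to 47.1 and 63.0 CPM in controls and 56.5 to 364 CPM in inflamed libraries. None of the 3 was called without either control.

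Epithelial genes fell. Of 23 genes common to epithelium 17 were called lower and 0 higher, and 18 had all inflamed libraries below both controls (median -2.36, 4 called without either control, 6 called lower with library totals). Epcam read 705 and 541 CPM in controls against 18.8, 111 and 383 (-2.23 ± 0.71, adjusted p = 0.043). Hnf4a, a master transcription factor of enterocytes, read 148 and 115 CPM against 4.49, 13.8 and 51.1 (-2.84 ± 0.56, adjusted p = 0.00474), and the tight junction gene Ocln 152 and 161 CPM against 14.8, 26.6 and 66.0 (-2.33 ± 0.35, adjusted p = 0.00105). Every inflamed library was below both controls in these genes, and animal 221 stood nearest. Cdx1 (-2.14), Cdx2 (-2.81), Vil1 (-2.60) and Tjp3 (-3.48) fell as well; Epcam, Cdx2 and Vil1 lost the call without control 216 (adjusted p from 0.147 to 0.224) and, with Tjp3, without 217 (0.0574 to 0.134). The list summed to 9460 and 5575 CPM in controls, 5088 CPM in animal 221 and 336 to 1653 CPM in the other 5 inflamed libraries.

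Of 26 genes of absorptive colonocytes 15 were lower and 0 higher (median -2.43, 9 called without either control, 11 called lower with library totals). Scnn1a, a subunit of the epithelial sodium channel, read 45.2 and 35.7 CPM against 4.87, 7.23 and 11.1 (-2.49 ± 0.26, adjusted p = 0.000268). Slc16a1, a carrier of lactate and butyrate, read 396 and 387 CPM against 42.2, 67.5 and 98.3 (-2.50 ± 0.32, adjusted p = 0.000572). The inflamed libraries lay close together in both and well below the controls. Of 17 goblet cell genes 6 were lower and 0 higher (median -1.48, -2.38 without animal 221, 2 called without either control, 5 called lower with library totals). Clca1 read 2717 and 2418 CPM against 17.9, 132 and 630 (-3.66 ± 0.82, adjusted p = 0.00812). Muc2, the gel-forming mucin, was not called, at 475 and 480 CPM in controls and 40.8, 93.6 and 847 CPM in inflamed libraries (-1.09 ± 0.88, adjusted p = 0.439), with animal 221 alone above the controls. Enteroendocrine genes had 1 lower of 15 (Chga, -1.22), which was not called without either control. Crypt stem and progenitor genes had 1 higher (Cd44, 2.12) and 2 lower (Prom1, -1.95, and Rnf43, -1.09) of 18. Cd44 alone of these was called without either control. The stem cell receptor Lgr5 read 16.4 and 22.1 CPM in controls and 16.8 to 32.4 in inflamed libraries, which overlapped (0.27 ± 0.27, adjusted p = 0.545). Tuft cell genes had 2 higher (among them Alox5ap, also expressed by myeloid cells) and 1 lower (Trpm5, -1.60) of 8. None of these was called without either control.

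Among 28 potassium and calcium channels 2 were higher and 5 lower (median -0.23, 4 called without either control). The calcium channel Trpv6, which works with the calbindin S100g, read 33.0 and 64.3 CPM against 2.50, 3.13 and 7.52 (-3.68 ± 0.43, adjusted p = 0.00037), and the magnesium channel Trpm6 263 and 265 CPM against 27.1, 39.1 and 61.0 (-2.67 ± 0.29, adjusted p = 0.00032). Both had groups that lay apart. The potassium channel Kcnj2 went the other way, from 0.192 and 0 CPM to 1.38, 4.79 and 8.33 CPM (adjusted p = 0.00267). Of 50 nuclear genes of oxidative phosphorylation 19 were lower and 0 higher (median -0.96, and -0.57 without control 216), but 1 call held without control 216 and 11 without control 217; Cox7b read 158 and 104 CPM against 13.8, 20.0 and 43.5 (-2.48 ± 0.47, adjusted p = 0.00358), and Atp5b fell by 1.41. Reads of genes encoded in mitochondria were 0.873% and 0.523% of the control libraries and 0.211% to 0.723% of the inflamed ones. Fatty acid oxidation and ketone synthesis had 11 lower and 0 higher of 32 (median -0.67, 2 called without either control), among them Ppargc1a, the coactivator of mitochondrial genes (-2.58 ± 0.40, adjusted p = 0.00119). Of 38 genes of xenobiotic and steroid metabolism 2 were higher and 10 lower (median -0.49). Aldh1a1, which makes retinoic acid, read 83.7 and 72.2 CPM against 7.44, 10.9 and 13.4 (-2.88 ± 0.34, adjusted p = 0.000358), whereas Hsd11b1, which regenerates active glucocorticoid, read 17.4 and 16.3 CPM against 43.0, 63.1 and 78.8 (1.88 ± 0.28, adjusted p = 0.00107). With library totals as the scale, the list medians of oxidative phosphorylation and fatty acid oxidation were -0.38 and -0.06, with 3 and 3 genes called lower, beside 0.72 for all genes.

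Of 33 genes of glycolysis and the hypoxia response 10 were higher and 0 lower (median 0.64, 3 called without either control). Hmox1, haem oxygenase, read 6.63 and 5.12 CPM against 54.8, 207 and 364 (5.12 ± 0.72, adjusted p = 0.000908), and Pfkfb3, which drives glycolytic flux, 7.31 and 5.51 CPM against 18.9, 40.6 and 61.3 (2.69 ± 0.47, adjusted p = 0.00217). The groups did not overlap in either. Proliferation genes had 12 higher and 1 lower of 34, and 25 had all inflamed libraries above both controls (median 1.17), yet 0 of the 13 calls held without control 217. Mcm3, part of the replicative helicase, read 7.69 and 3.41 CPM against 14.97, 22.5 and 65.7 (2.32 ± 0.67, adjusted p = 0.0295), and Cenpe, a mitotic motor, 15.7 and 14.04 CPM against 27.7, 37.3 and 45.3 (1.35 ± 0.28, adjusted p = 0.00519). Mki67 was above both controls in every inflamed library but not called (1.35 ± 0.51, adjusted p = 0.0834). E2f1, at 16050 and 34250 CPM in controls, held 96.6% and 98.7% of the list's summed level there. That sum was 16620 and 34720 CPM in controls and 6306 to 15250 CPM in inflamed libraries, the opposite direction to the list's median. E2f1 itself was lower in inflamed colon, with log2 fold changes of -2.12 without control 216 and -1.04 without control 217. Endoplasmic reticulum stress genes had 1 higher (Ero1l, 1.85) and 1 lower (Herpud1, -1.16) of 26 (median 0.08), neither called without either control. Ribosomal proteins had 0 called of 31 (median 0.06).

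Of 19 smooth muscle genes 6 were lower and 0 higher, and 11 had all inflamed libraries below both controls (median -0.88, 1 called without either control, 1 higher and 2 lower with library totals). Synpo2, an actin-binding protein of muscle, read 1082 and 1315 CPM against 194, 311 and 415 (-2.01 ± 0.38, adjusted p = 0.0034), and Myl9, the regulatory myosin light chain, 415 and 295 CPM against 36.0, 81.4 and 125 (-2.14 ± 0.48, adjusted p = 0.00819). Myh11, the smooth muscle myosin, was below both controls in all 6 libraries but not called (-1.17 ± 0.55, adjusted p = 0.165). Of 8 genes of interstitial cells of Cajal, Ano1, the pacemaker chloride channel, fell (-1.96) and Gja1, a gap junction protein of many cell types, rose (2.92). Neither Ano1 nor Gja1 was called without either control. Enteric neurons had 2 higher of 20, the neuropeptides Vip (2.56) and Tac1 (2.40), both with animal 218 inside or below the control range. Enteric glia had 1 lower of 11 (Erbb3, -2.02). Erbb3 was called without either control, while Vip and Tac1 were not. Receptors of smooth muscle and nerve signals had 5 higher and 8 lower of 34 (median 0.13, 5 called without either control). The natriuretic peptide receptor Npr1 rose (1.99) and the purine receptor P2ry1 (-1.99), the protease receptor F2rl1 (-1.91) and the adrenergic receptor Adrb3 (-2.53) fell. Adipocyte and mesentery genes had 2 higher (Lpl, Fabp4) and 1 lower (Pck1) of 14. Pck1 alone of these was called without either control. Skeletal muscle (17 tested) and squamous epithelium (10 tested) had 0 called. Of 18 circadian genes 1 was higher (Nfil3, 2.47) and 4 lower, among them Arntl (-1.41), Nr1d1 (-2.05) and Npas2 (-1.62). Arntl alone of these was called without either control. The sources used here do not give the time of day of sampling.

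**Figure D3:**
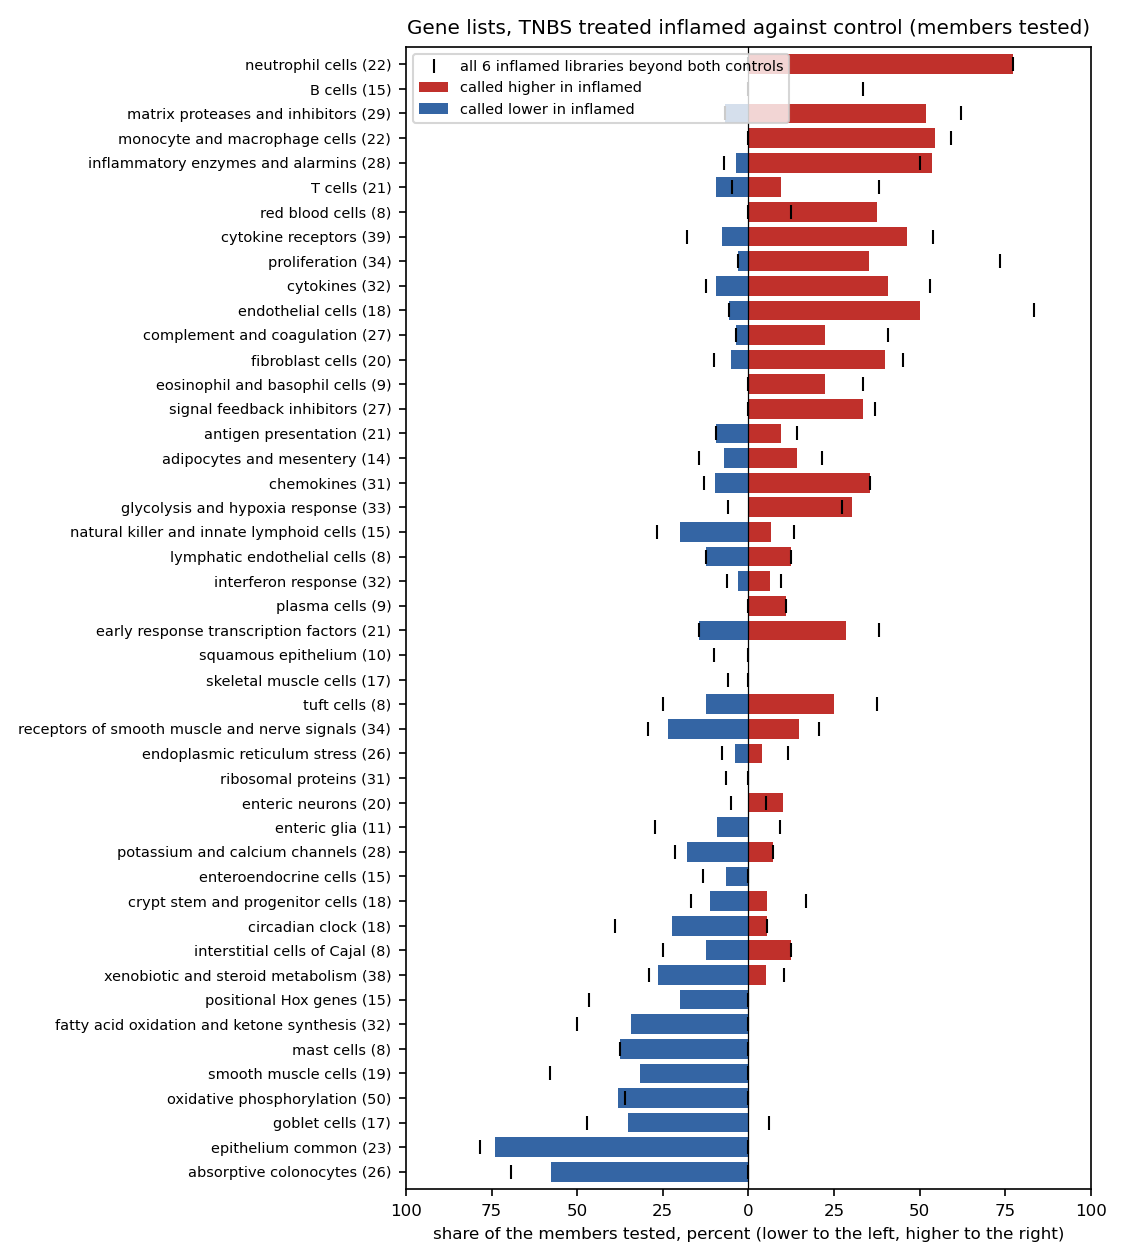
Share of the tested members of each of the 46 lists that was called higher (red, to the right) or lower (blue, to the left) in inflamed colon, with black ticks for the share whose 6 inflamed libraries all lay above (right) or below (left) both controls; the axis is in percent and the number tested is in brackets. Neutrophil genes reach 17 of 22 on the higher side and genes common to epithelium 17 of 23 on the lower side, against 5.93% and 7.79% of all genes.

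The inflamed libraries differed among themselves in a way that ran through many genes. The median log2 difference from the control mean over the genes called higher was 1.18 in animal 221 and 1.34 in animal 218, and 1.71 to 1.92 in the other 4. Over the genes called lower it was -1.04 in animal 221 and -1.57 to -1.88 in the other 5. Animal 221 was the inflamed library nearest to the controls in 918 (63.1%) of the genes called lower and in 412 (37.2%) of those called higher, and animal 218 in 515 (46.5%) of those called higher. The called genes that varied most among the inflamed libraries were the epithelial genes Fgfbp1, Tff3, Ckmt1b, Misp and Cldn7. Tff3, the trefoil peptide of goblet cells, read 359 and 302.3 CPM in controls, 147 CPM in animal 221, 34.9 to 46.0 in animals 218, 219 and 222, and 4.96 and 4.25 in animals 220 and 223. Ckmt1b read 416 and 362 CPM in controls, 236 in animal 221 and 6.20 and 6.44 in animals 220 and 223. Animal 221 thus stood nearest to the controls and animals 220 and 223 farthest in both, and both genes lost the call when either control was left out (adjusted p from 0.108 to 0.201). Animal 218 differed in another way, with the highest B cell sum, the lowest sums of smooth muscle (1648 CPM against 3369 to 5694 in the other 5) and fibroblast genes (3812 against 6188 to 13860), and a ribosomal protein sum of 40390 CPM against 13990 to 17570. With animals 218 and 221 left out together, 1465 genes were called higher and 1892 lower. The part of these sums in the changes of other genes was not tested.

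**Figure D4:**
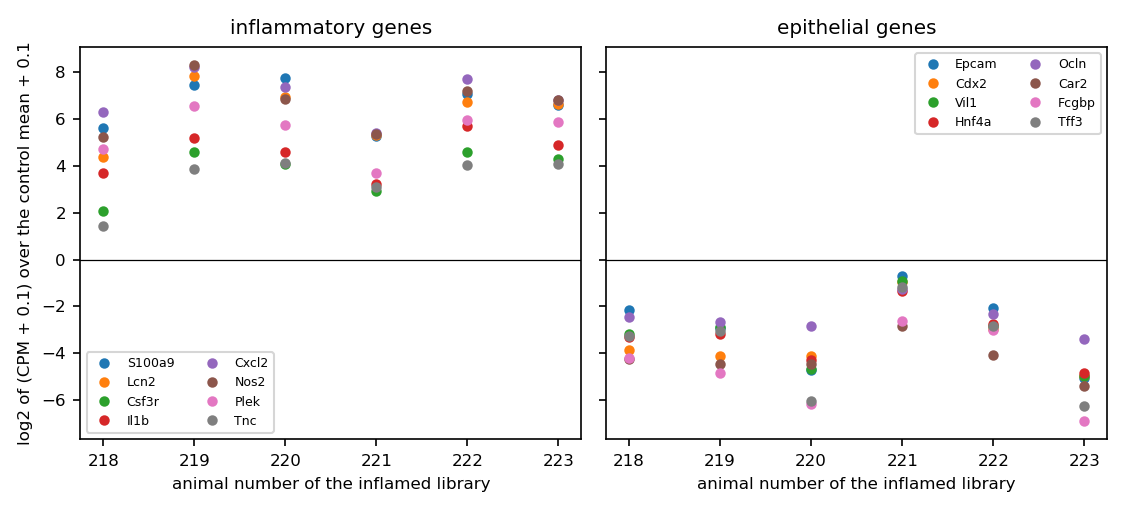
Log2 ratio of the level (CPM + 0.1) in each TNBS treated inflamed library to the mean of the 2 controls (+ 0.1), for 8 inflammatory genes (left) and 8 epithelial genes (right), by animal number; each point is 1 library and colours are genes. In animal 221 the epithelial genes lie nearest to 0, and in animals 218 and 221 the inflammatory genes lie lower than in the other 4 animals.

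Uninflamed regions of the same rats are set beside these differences, and both sets of values share the same 2 controls. All 6 uninflamed libraries lay above both controls for 5.23% of all genes tested and below both for 6.16%. Of the 1032 genes called higher with separated groups, 261 had all 6 uninflamed libraries above both controls too, and of the 1302 called lower, 357 had all 6 below. The 1032 and 1302 were chosen by the same 2 controls, so part of the excess over the shares of all genes follows from that choice. S100g read 1.56 to 37.9 CPM in uninflamed libraries, Aqp8 6.21 to 42.3, Atp12a 23.9 to 162 and Retnla 0.281 to 7.37, in each gene below both controls. By the same quasi-likelihood test, their uninflamed minus control log2 fold changes were -3.02, -2.53, -3.05 and -5.36 in that order. Adjusted p was 0.179, 0.229, 0.111 and 0.0178, so of these Retnla alone met the rule for a call. Slc20a1, a phosphate carrier, read 251 and 192 CPM in controls, with 68.8 to 95.8 in the uninflamed and 43.0 to 69.2 in the inflamed libraries (I-C -1.96 ± 0.20, adjusted p = 0.000268; inflamed minus uninflamed -0.49, adjusted p = 0.0319). Tnfsf4, a T cell costimulator of the tumour necrosis factor family, read 10.2 and 42.4 CPM, 2.38 to 3.78 and 2.02 to 4.34 CPM in the same order (inflamed minus uninflamed -0.04, adjusted p = 0.949). Plcd1 (-3.28) and Yars (-2.45) were lower and Fkbp11 (2.18) higher in both sets. Plcd1 read 33.3 CPM in control 216 and 294 in control 217, Yars 39.5 and 243, and both lost the call without control 217 (adjusted p = 0.0871 and 0.138). Fkbp11 lost it without either animal in turn (adjusted p = 0.196 and 0.163). Other genes had uninflamed levels like those of the controls: Car2 read 335 to 1131 CPM, Slc9a3 82.2 to 581, Hpgd 92.2 to 283, Cxcl2 1.05 to 1.97 and Nos2 4.29 to 14.02 CPM in uninflamed libraries.

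Genes that mark position along the gut were read because control sections were taken at random. Of 15 positional genes tested 3 were called lower and 0 higher, and 7 had all inflamed libraries below both controls (median -0.56). Hoxd13, a homeobox gene of the hindgut end, read 71.4 and 50.9 CPM in controls, 7.07, 11.1 and 22.6 CPM in inflamed and 0.562 to 7.33 CPM in uninflamed libraries (I-C -2.24 ± 0.60, adjusted p = 0.0214; inflamed minus uninflamed 2.16, adjusted p = 0.00754), so that the order was control, inflamed, uninflamed. Hoxb9 was lower (-1.85). Hoxd13 and Hoxb9 lost the call when either control was left out (adjusted p from 0.0802 to 0.201). Place of sampling and inflammation cannot be told apart in this comparison.

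**Figure D5:**
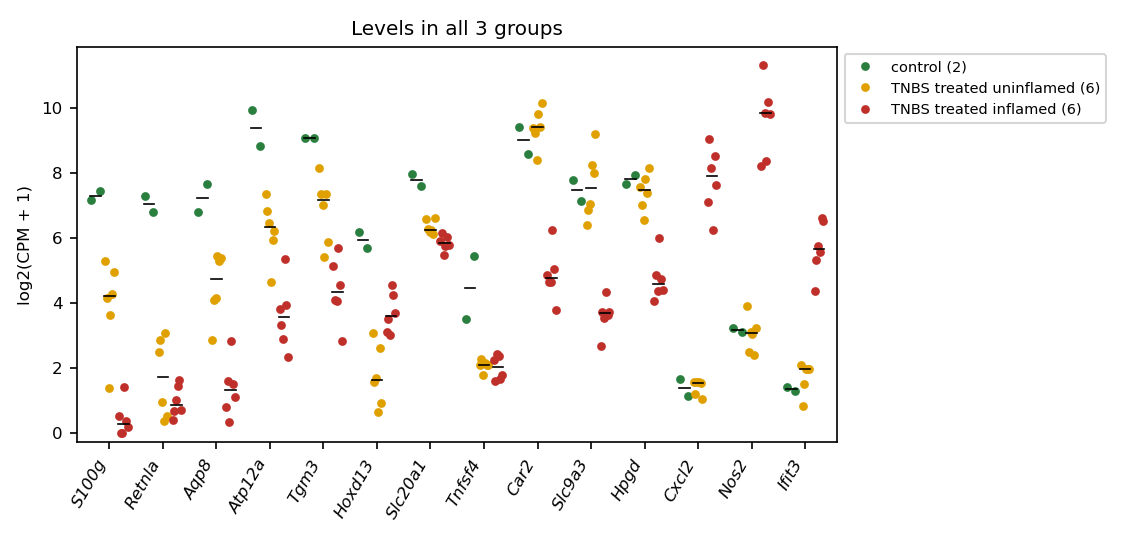
Levels of 14 genes in control (green), TNBS treated uninflamed (yellow) and TNBS treated inflamed libraries (red) as log2(CPM + 1); each point is 1 library and short lines are medians. S100g, Retnla, Aqp8, Atp12a, Tgm3, Hoxd13, Slc20a1 and Tnfsf4 have all 6 uninflamed libraries below both controls. Cxcl2 and Nos2 are high in the inflamed libraries alone.

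Called genes whose groups overlapped numbered 228, and in 68 of them the controls were more than 4-fold apart. The called genes with the smallest adjusted p and overlapping groups were Klhdc10, Sult5a1, Pcmt1, Acad10 and Acox3. Klhdc10 read 35.3 CPM in control 216, 2018 in control 217 and 26.4 to 42.0 in inflamed libraries, and Pcmt1 29.3, 2037 and 22.1 to 50.5 CPM. In all 5 the inflamed libraries stood at the level of control 216, and without control 217 the log2 fold changes were -0.11, -0.29, 0.20, -0.39 and -0.10 in that order. The called genes whose controls differed most were, with Pcmt1, Tmprss13 (1.54 and 144 CPM), Cnnm1 (3.85 and 289), Amica1 (25.1 and 1473) and, with control 216 high, Bard1 (1059 and 17.1). In Tmprss13 and Cnnm1 all inflamed libraries lay between the controls, nearer to control 216. Genes separated from the controls but not called include ones with a single high inflamed library. Zyg11a read 1348 CPM in animal 223 and 4.81 to 8.56 in the other 5 against 3.75 and 4.07 in controls, Mthfd2l 1140 against 11.1 to 15.5 (controls 9.71 and 10.8), and Cr2, a complement receptor of B cells, 278 CPM in animal 218 against 4.52 to 61.1 (controls 2.50 and 3.68). Oscar (3.87, adjusted p = 0.0523) and the pentraxin Mptx (-3.75, adjusted p = 0.132) were the others of largest change. Nearest to the 2-fold threshold, Shkbp1, Stil, Aaas and Tinf2 were called with rises of 1.00 each and Ctss, which fell by 1.00, was called too, while Prkcd, Frk, Isca1, Mier1 and Pvrl2, which fell by 1.00 each, were not.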

How the data were processed

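Total RNA depleted of ribosomal RNA was sequenced on a SOLiD instrument, and the authors mapped the reads to the rat genome build Rnor_5.0 and deposited raw read counts per gene for 14 libraries. No depth, length or batch correction had been applied to these counts. Counts were read as deposited, with 25 date-like gene names left unnamed. Genes were kept by edgeR's filterByExpr (minimum count 10), scaled by TMM, and fitted in edgeR 4.0.16 (R 4.3.3) by the robust quasi-likelihood test over all 14 libraries in 3 groups, which share 1 estimate of the spread; the contrast was inflamed minus control. Each library is a piece of tissue of 1 animal; 6 animals gave an inflamed and an uninflamed piece. P-values were adjusted by Benjamini-Hochberg over all 18678 genes. The scripts were tested on simulated counts. The sources used here do not say whether counting used strand, so overlapping and near-identical genes are uncertain.

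Genes with a symbol and a mean log2 CPM of at least 1 were named by several rules. These took the 15 largest rises and 15 largest falls with separated groups. They also took 5 genes each by smallest adjusted p with overlap, largest change not called, and likeness to the uninflamed libraries. Spread among inflamed libraries, distance between the controls, and nearness to the 2-fold threshold on either side gave 5 each as well. The 4 members of each list with the smallest adjusted p, and members a result turned on, were named whatever their level. Some are very low: Mcpt1 read 1.73 and 0.263 CPM in controls 216 and 217 and 0 to 0.205 in inflamed libraries. Nkg7 read 1.92 and 1.575 CPM in controls and 0.137 to 0.637 in inflamed libraries. The libraries, lists and rules were chosen with earlier results of these data known. Of 1090 symbols in the 46 lists, 1030 matched by symbol, 8 by synonym and 52 had no match. Alternatives were the exact test, DESeq2 1.42.0, limma 3.58.1 voom with and without the animal as a block, the 8 libraries alone, other scalings and filters, and each library left out. Leaving out animals 218 and 221 together, and library totals without the 41 most abundant genes, were chosen after seeing the data. A few members of the lists are counted but not reported by name here.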

Additional observations from a re-analysis of the deposited data

Results flagged for a closer look

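In each of 220 named genes and 46 summed lists, the highest and lowest of the 6 inflamed libraries were compared with their nearest neighbour by Dixon's ratio of gap to range against its 95% critical value. The ratio was passed by 13 genes and 5 lists, and chance alone passes about 1 in 20. Animal 218 lay far below the other inflamed libraries in Slpil2 (0.631), Plcd1 (0.756), Tac1 (0.680), Vip (0.71), Tnc (0.630), Fos (0.663) and Actg2 (0.678), and in the summed levels of skeletal muscle genes (0.711) and of interstitial cells of Cajal (0.686). It lay far above them in E2f1 (0.632) and in the summed levels of proliferation (0.661) and ribosomal protein genes (0.785). E2f1 is a member of the proliferation list and held 96.6% and 98.7% of its sum in controls. In animal 218 it took 1.37% of all reads, so the proliferation flag largely repeats that of E2f1. Animal 221 stood high in Pck1 (0.655) and Trpv6 (0.690) and low in summed chemokines (0.650). Animal 222 stood high in Acox3 (0.639), and animal 223 in Zyg11a (0.900) and Mthfd2l (0.929).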

How the results depend on the processing

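The counts of 1107 higher and 1455 lower genes stayed within 1.5 times under the exact test, DESeq2, voom, the 8 libraries alone, RLE scaling, either filter and no 2-fold threshold. With the animal as a replicate block in voom they were 879 and 1440, against 884 and 1438 without it, and the correlation within an animal was 0.028; no control animal has a second piece, so the block does not pair the groups compared here. Library totals alone gave 3372 higher and 470 lower, with 7137 genes above and 612 below both controls. Library totals without the most abundant genes gave 2369, 726, 5723 and 1030. Leaving out 1 library at a time gave 248 to 1267 higher, 671 to 1768 lower, 2719 to 4814 above and 2732 to 4644 below. The fewest calls and the most separated genes came from leaving out a control: without control 216 the counts were 334, 762, 4782 and 4130, and without control 217 they were 248, 671, 4814 and 4644, where genes need lie beyond 1 control alone. Without animals 218 and 221, 3966 genes lay above both controls. The sign of the log2 fold change turned for Cd3e with library totals (0.37) and without the abundant genes (0.13), and for Actg2 with library totals (0.043). With 1 library left out it ran from -1.70 (without animal 218) to 2.32 (without control 217) for Cd3e. It turned without control 217 for Pcmt1 (range -5.91 to 0.20), Tmprss13 (-4.14 to 2.40), Cnnm1 (-4.84 to 1.38), Amica1 (-5.78 to 0.094) and Cd4 (-4.04 to 0.92), and without control 216 for Bard1 (-5.80 to 0.16). The cause was not tested. Of the 196 named genes that were called, 83 lost the call without control 216 and 94 without control 217.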
